A study of Mus musculus with 2 samples.

Results

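The 10 genes described here, all turned on by Wnt signalling, were followed through the mouse colon: Axin2, Ascl2, Nkd1, Lef1, Tcf7, Notum, Rnf43, Znrf3, Cd44 and Myc. They were chosen by name, as reported targets and feedback genes of the pathway. All 10 were among the 17809 genes of the wild-type library. The reporter library listed 8 of them among its 15972 genes, without Notum and Rnf43, so that the 10 stand among 19430 genes over both libraries.

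Wnt proteins bind Frizzled and Lrp receptors, which stops the destruction of beta-catenin, and beta-catenin then enters the nucleus and switches on genes together with TCF/LEF factors. In the intestine this signal keeps stem cells at the crypt base dividing, and it fades toward the surface. Several target genes encode brakes on the same pathway, so that their transcripts are used as readouts of a cell that is receiving Wnt and as measures of how it limits the response.

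The wild-type library (wt_colon) held cells of C57BL/6 mice, with EpCAM+ epithelial and EpCAM- mesenchymal cells that lacked CD45 sorted and mixed in equal parts. The reporter library (pdgfraegfp_colon) held GFP+ mesenchymal cells of Pdgfra-H2B-eGFP mice, in which the Pdgfra locus drives a nuclear green fluorescent protein. Each library pooled the colons of 3 female mice aged 8 to 12 weeks, and neither carried a treatment. There was 1 library per genotype and no map from cells to mice, so no p-value was possible, and the intervals given are exact 95% binomial intervals that cover counting error only. Where no cell of a class was above 0, the limit given is instead 3 counts of its number of cells, and it concerns cells with a count, not cells that express the gene.

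The wild-type library held 7495 cells with a median of 8972 corrected counts and 2804 genes per cell, and the reporter library held 4409 cells with 3150 corrected counts and 1381 genes. The libraries also differed in chemistry and were normalized separately, so that ratios were formed within a library and levels of both are only set side by side. Cells were clustered without the 10 genes, and a cluster was called "X-like" from marker lists, where CTFs are fibroblasts of the crypt top and CBFs1 and CBFs2 fibroblasts of the crypt bottom. Epithelial transcripts were counted in wild-type fibroblasts. Muc2, a goblet cell mucin, was above 0 in 35.2% of CBFs1-like cells and Epcam in 50.9% of CTFs-like cells. The source of these counts, such as RNA of other cells, was not tested. In reporter CBFs1-like cells Epcam was at 0.6%. In the reporter library cluster 4, of 528 cells, had all 8 CTFs markers raised, but the smooth muscle genes Tagln, Acta2 and Myl9 were among its 10 leading genes beside the CTFs markers Bmp3 and Wif1. It is called by its number, and stood in the place of CTFs in the planned comparison. Clusters of 487 cells led by haemoglobin genes, all with Epcam above 0, and of 101 epithelial cells led by collagen genes were left unnamed. Between the libraries, 1 cell barcode was shared.

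In the wild-type colon the 10 genes fell into different places rather than one. Axin2, Ascl2, Rnf43 and Znrf3 were mainly epithelial transcripts, with 72.7%, 93.6%, 90.6% and 74.9% of their corrected counts in the 2476 epithelial cells, which made up 33.0% of the library. Lef1 was a fibroblast transcript, with 85.8% of its counts in the 2497 fibroblast cells. Nkd1 was a muscle transcript, with 71.9% of its counts in the 949 smooth muscle-like cells. Cd44 and Myc were spread over both compartments.

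**Figure D1:**
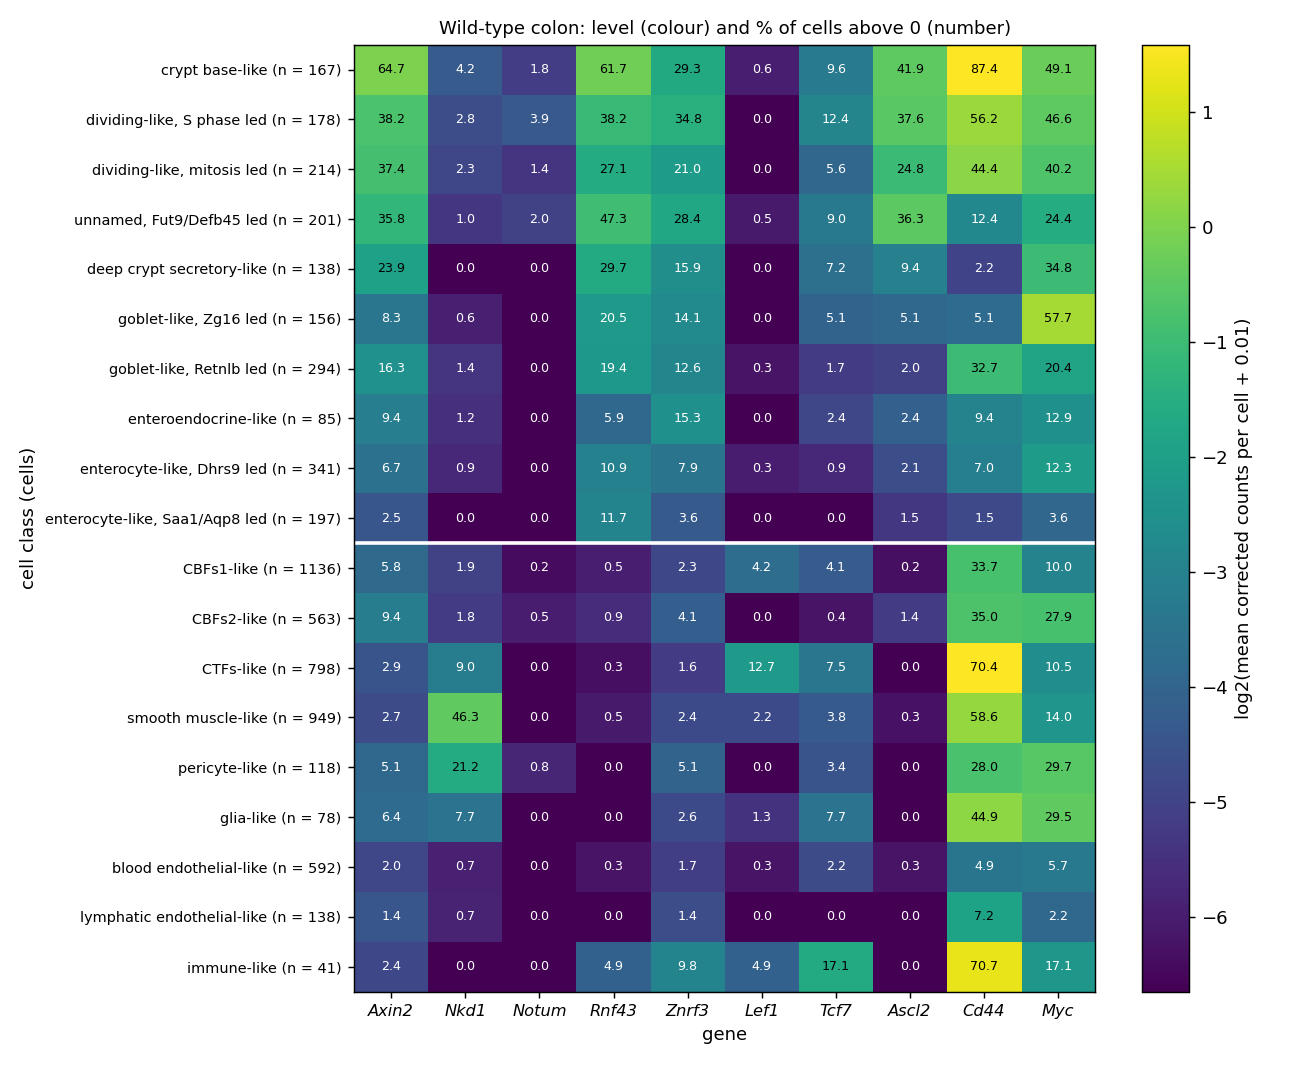
Level of each gene (colour, log2 of mean corrected counts per cell plus 0.01) and percent of cells above 0 (numbers) in 19 groups of the wild-type library, with epithelial groups above the white line and stromal groups below. Axin2 (64.7%), Rnf43 (61.7%) and Ascl2 (41.9%) peak in the crypt base-like row, Nkd1 in smooth muscle-like cells (46.3%) and Lef1 in CTFs-like cells (12.7%).

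Over all epithelial against all fibroblast cells, 4 of the 7 members that passed the filter of a mean of 0.05 in either group were at least 2-fold higher in epithelium, where 34.9% of all 11964 genes were, and 2 were at least 2-fold lower, where 17.4% of genes were. Ascl2, Rnf43 and Znrf3 passed only through epithelium and Lef1 only through fibroblasts, so that the count describes where they were high. Over all 10 members, whether or not they passed the filter, the median log2 ratio was 0.70, beside 0.49 over all genes that passed. The log2 ratio was 4.22 for Rnf43, 3.99 for Ascl2, 2.34 for Znrf3 and 2.03 for Axin2. It was -3.01 for Lef1 and -1.30 for Cd44, while Myc lay at 0.91. The members below the filter were Nkd1, Tcf7 and Notum, of which Tcf7 had the same mean in both compartments (0.048 and 0.047 corrected counts per cell).

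Axin2 encodes a scaffold of the complex that destroys beta-catenin and is a widely used readout of the pathway. Its mean was 0.964 corrected counts per cell in crypt base-like cells, and 108 of these 167 cells (64.7%, interval 56.9 to 71.9) were above 0. The mean was 0.566 in dividing-like cells, 0.254 in the deep crypt secretory-like class, 0.140 in the goblet-like, 0.106 in the enteroendocrine-like and 0.061 in the enterocyte-like class. In the dividing-like class the S-phase cluster, led by Uhrf1 and Mcm3, and the mitotic cluster, led by Nusap1 and Plk1, were at 0.584 and 0.551. Axin2 thus had its highest level at the crypt base, with dividing-like cells below it and enterocyte-like cells lowest among the named epithelial classes.

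Rnf43 and Znrf3 encode membrane ubiquitin ligases that remove Frizzled receptors from the cell surface. Rnf43 averaged 0.862 in crypt base-like cells and was above 0 in 61.7% of them (interval 53.8 to 69.1). Its mean was 0.383 in dividing-like, 0.319 in deep crypt secretory-like, 0.2 in goblet-like cells, then 0.115 for the enterocyte-like and 0.059 for the enteroendocrine-like class. Znrf3 averaged 0.311 in crypt base-like and 0.288 in dividing-like cells, shares of 29.3% and 27.3% whose intervals overlapped. Its mean was 0.131 to 0.165 in the 3 secretory classes and 0.065 in enterocyte-like cells. Enteroendocrine-like cells, 85 in all, were low in Rnf43 (5.88%, interval 1.94 to 13.2) beside deep crypt secretory-like cells (29.7%, 22.2 to 38.1), while their Znrf3 shares (15.3% and 15.9%) overlapped. With every cell thinned to 2000 corrected counts the Rnf43 shares overlapped too, at 1.18% (0.0298 to 6.38) and 7.97% (4.05 to 13.8).

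Ascl2 encodes a transcription factor that maintains intestinal stem cells. It averaged 0.719 in crypt base-like cells (41.9% above 0, interval 34.3 to 49.8), 0.691 in the S-phase cluster and 0.477 in the mitotic cluster. It was 0.109 in deep crypt secretory-like, 0.047 in enteroendocrine-like, 0.033 in goblet-like cells, and 0.024 in the enterocyte-like class. Among 2497 fibroblasts 10 were above 0, of which 8 were CBFs2-like, and 0 of the 798 CTFs-like cells, which allows a share of up to 0.376%.

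Notum encodes an enzyme that strips the lipid from Wnt proteins. It was almost absent from this colon: 23 of 7495 cells (0.307%, interval 0.195 to 0.460) carried 1 corrected count each. The epithelium held 17 of these cells, and the S-phase cluster alone held 7 of its 178 cells (3.93%, interval 1.60 to 7.93). It was 0 in 538 enterocyte-like cells, which allows a share of up to 0.558%.

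An unnamed epithelial cluster of 201 cells, led by Trf, Defb45 and Fut9, was near crypt base-like cells in some members and below them in others. Ascl2 averaged 0.701 there and 0.719 in crypt base-like cells, and Znrf3 0.289 and 0.311. Axin2 was 0.428 against 0.964, and Rnf43 0.512 against 0.862. Cd44 was 0.134 against 2.99, and 12.4% of its cells (interval 8.21 to 17.8) against 87.4% (81.4 to 92.0) were above 0. Lgr5 was above 0 in 16.9% of this cluster and in 56.3% of crypt base-like cells, with a median of 3170 and 3341 genes per cell.

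Cd44 encodes a hyaluronan receptor at the cell surface, and among secretory cells it divided the clusters. Its mean was 2.99 in crypt base-like cells, 1.25 and 1.11 in the S-phase and mitotic clusters, 0.486 in the goblet-like cluster led by Retnlb, 0.064 in the goblet-like cluster led by Zg16 and 0.022 in deep crypt secretory-like cells. The last class, with Reg4 among its leading genes, held 3 positive cells of 138 (2.17%, interval 0.451 to 6.22). The deep crypt secretory-like class was therefore low in Cd44 while Axin2 and Rnf43 were above 0 in 23.9% and 29.7% of its cells.

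Myc encodes a transcription factor for growth and ribosome genes, and its highest level in a single epithelial cluster was not at the crypt base. The goblet-like cluster led by Zg16 and Clca1 averaged 1.38, with 90 of 156 cells above 0 (57.7%, interval 49.5 to 65.6). Crypt base-like cells averaged 0.820 (49.1%, interval 41.3 to 56.9), an overlapping share. The goblet-like cluster led by Retnlb averaged 0.272 and 20.4% (interval 16.0 to 25.5). The Myc-high goblet-like cluster was the lower one in Cd44, with shares of 5.13% (2.24 to 9.85) and 32.7% (27.3 to 38.3), whereas the Axin2 shares of 8.33% (4.51 to 13.8) and 16.3% (12.3 to 21.1) overlapped.

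Lef1 and Tcf7 encode DNA-binding partners of beta-catenin. Lef1 was above 0 in 7 of 2476 epithelial cells (0.283%). Tcf7 was low, at 0.096 in crypt base-like, 0.087 in dividing-like and 0.072 in deep crypt secretory-like cells. Their shares of 9.58% (5.58 to 15.1), 8.67% (6.08 to 11.9) and 7.25% (3.53 to 12.9) overlapped. It was 0.029 in goblet-like cells, 0.024 in the enteroendocrine-like and 0.006 in the enterocyte-like class. After thinning, crypt base-like cells (2.40%, 0.656 to 6.02) and enterocyte-like cells (0.186%, 0.0047 to 1.03) overlapped. The 101 unnamed cells led by collagen genes averaged 0.129. Nkd1, which encodes an inhibitor of the Dishevelled relay protein, averaged 0.042 in crypt base-like and 0.026 in dividing-like cells, and 21 of its 51 epithelial counts lay in the 101 cells led by collagen genes.

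Crypt-like cells, the crypt base-like and dividing-like classes together, were then set against enterocyte-like cells (559 and 538 cells). Of the 7 members that passed the filter, 7 were at least 2-fold higher in crypt-like cells, where 33.4% of 10996 genes were, and 0 were lower, where 12.2% of genes were. Ascl2 and Tcf7 passed only through crypt-like cells. Over all 10 members, whether or not they passed the filter, the median log2 ratio was 2.10, beside 0.50 for all genes that passed. Lef1 alone was below 0, at -0.22. The log2 ratios were 4.29 for Cd44, 4.20 for Ascl2, 3.28 for Axin2, 2.67 for Tcf7, and 2.10, 2.10 and 2.02 for Rnf43, Myc and Znrf3. Ascl2 and Cd44 lay at percentiles 99.2 and 99.3 of all genes that passed. Notum, below the filter, had 13 counts in crypt-like cells and 0 in enterocyte-like cells, at least 4.17-fold higher against a floor of 3 counts over the group.

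The non-secretory epithelial cells were also ordered without class names, by the z-scores of enterocyte markers minus those of crypt base markers, and split into 5 bins of 360 or 361 cells. No member was among these markers. The crypt base markers included Lgr5 and Cdca7, which were among the 3 genes most alike to Ascl2 over the classes. The order is therefore not independent of members with such a pattern. Axin2 averaged 0.947, 0.385, 0.180, 0.094 and 0.039 from the first to the last bin. Ascl2 was at 1.01, 0.368, 0.078, 0.036 and 0.006. Cd44 averaged 1.95, 0.795, 0.310, 0.119 and 0.036. These 3 genes, and also Myc, Rnf43, Znrf3, Tcf7 and Nkd1, had a lower mean in each bin than in the one before it. The order also held the unnamed epithelial clusters, among them the 101 cells led by collagen genes. These 101 cells carried 21 Nkd1 counts and 13 Tcf7 counts, and their part in the fall of both genes was not tested.

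Myc had a shallower slope, at 0.765, 0.607, 0.385, 0.169 and 0.061. Rnf43 averaged 0.690, 0.432, 0.260, 0.125 and 0.089, and Znrf3 0.380, 0.230, 0.202, 0.092 and 0.042. In the last bin Rnf43 was still above 0 in 8.89% of cells (interval 6.16 to 12.3), and Ascl2 in 0.556% (0.0674 to 1.99). Tcf7 averaged 0.108, 0.089, 0.047, 0.011 and 0.003.

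**Figure D2:**
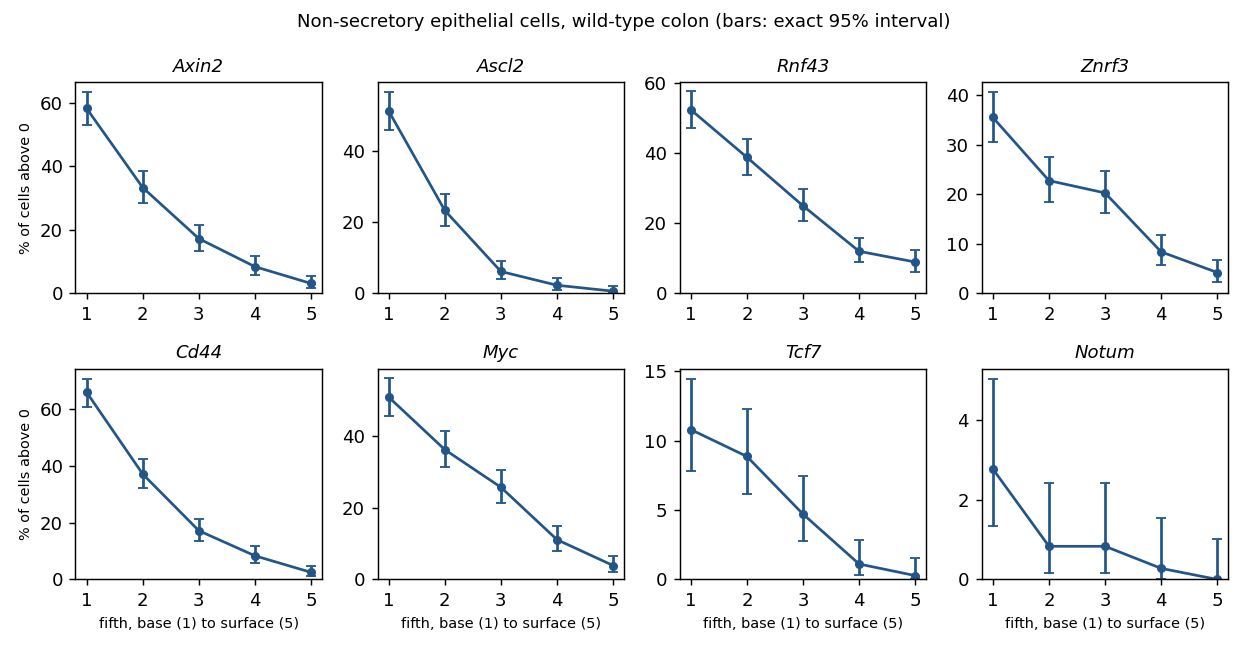
Percent of non-secretory epithelial cells above 0 for 8 genes in 5 bins of the base-to-surface order (1, crypt base markers high; 5, enterocyte markers high), 360 or 361 cells each, with exact 95% intervals. Axin2 goes from 58.2% to 3.06% and Ascl2 from 51.2% to 0.556%, while Rnf43 ends at 8.89%.

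The log2 ratio of the last over the first bin was -6.04 for Ascl2, -5.41 for Cd44, -4.29 for Axin2, -3.45 for Myc, -3.21 for Tcf7, -2.91 for Znrf3 and -2.82 for Rnf43. It was 0.00 for Lef1, with 3 and 2 positive cells. The bins are ranges of a score: 58, 111, 86 and 31 cells lay within 0.05 of the successive limits. The median number of genes per cell went from 3439 to 2844 and the median mitochondrial share from 8.77% to 13.5% along the order, and their part in the result was not tested. With every cell thinned to 2000 corrected counts, Axin2 was above 0 in 21.6%, 8.59%, 4.16%, 2.22% and 0.833% of the bins.

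Within crypt-like cells, Lgr5, the R-spondin receptor that marks stem cells, split the members further at a similar number of genes per cell. The corrected counts do not give the sequencing depth of a cell. The median number of genes was 3443 in 188 cells with Lgr5 above 0 and 3439 in 371 cells without it. Cd44 was above 0 in 86.7% of the first (interval 81.0 to 91.2) and 48.0% of the second (42.8 to 53.2). Axin2 was at 68.1% (60.9 to 74.7) and 34.5% (29.7 to 39.6). Rnf43 was at 61.7% and 30.5%, Ascl2 at 55.3% and 23.2%, Myc at 57.4% and 38.5% and Znrf3 at 40.4% and 21.6%, each pair with intervals that did not overlap before thinning.

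Tcf7 (12.2% and 7.28%), Notum (3.19% and 1.89%) and Nkd1 (3.19% and 2.96%) had overlapping intervals. After thinning to 2000 corrected counts, Axin2 was above 0 in 26.6% of cells with Lgr5 (20.4 to 33.5) and 7.55% of cells without it (5.07 to 10.7), and Cd44, Rnf43 and Ascl2 also kept separate intervals. Those of Myc (16.5%, 11.5 to 22.6, and 12.4%, 9.22 to 16.2) and Znrf3 (5.85%, 2.96 to 10.2, and 2.96%, 1.49 to 5.24) then overlapped. Lgr5 was a marker of the crypt base-like class, so these cells also differ in class.

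**Figure D3:**
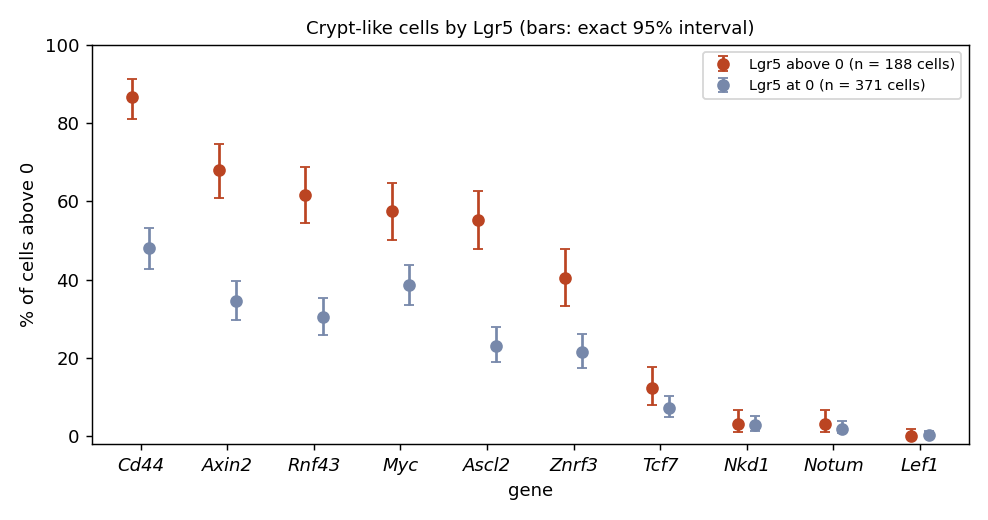
Percent of crypt-like cells above 0 for each gene, in 188 cells with Lgr5 above 0 and 371 cells with Lgr5 at 0, with exact 95% intervals. The intervals, before thinning, are apart for Cd44, Axin2, Rnf43, Myc, Ascl2 and Znrf3 and overlap for Tcf7, Nkd1, Notum and Lef1.

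Some of the members were also found in the same crypt-like cells. Among the 256 cells with Axin2, Rnf43 was above 0 in 55.1% (interval 48.8 to 61.3), against 29.0% (24.0 to 34.5) of the 303 cells without it. Ascl2 was at 51.2% and 19.5%, and Cd44 at 78.1% and 46.5%. Znrf3 was at 33.2% (27.5 to 39.3) and 23.4% (18.8 to 28.6), which overlapped. Axin2 and Rnf43 were both higher in crypt base-like than in dividing-like cells, so cells with and without Axin2 also differ in class. Of the 13 cells with Notum, 7 had Axin2 and 0 had Nkd1.

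Among stromal groups Nkd1 had the clearest address. It averaged 0.729 in smooth muscle-like cells and was above 0 in 439 of 949 (46.3%, interval 43.1 to 49.5). Pericyte-like cells were at 0.322 (21.2%, interval 14.2 to 29.7), CTFs-like cells at 0.099 (9.02%, 7.13 to 11.2) and glia-like cells at 0.077. Both CBFs classes were near 0.02, both endothelial classes at 0.007, and immune-like cells at 0. The intervals of smooth muscle-like, pericyte-like and CTFs-like cells did not overlap. After thinning, at 15.8% (13.5 to 18.3), 7.63% (3.55 to 14.0) and 2.76% (1.74 to 4.14), each overlapped its neighbour, while smooth muscle-like and CTFs-like cells stayed apart. A small smooth muscle-like cluster had Epcam above 0 in 63 of 63 cells, and without it Nkd1 averaged 0.763 (48.8%, 45.4 to 52.1).

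An unnamed cluster of 20 cells, led by Pcp4, Hand1 and Cckar and with all 4 markers of interstitial cells of Cajal raised, averaged 1.5, with 14 cells above 0. Nkd1 and Axin2 were not linked beyond the intervals in muscle: of the smooth muscle-like cells with Nkd1, 3.42% had Axin2 (1.92 to 5.57), and of those without, 2.16% (1.08 to 3.83).

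Lef1 was most frequent in CTFs-like cells, the fibroblasts of the crypt top with high Pdgfra. It averaged 0.209 there (101 of 798 cells, 12.7%, interval 10.4 to 15.2), 0.066 in CBFs1-like cells of the crypt bottom (4.23%, 3.13 to 5.56) and 0.026 in smooth muscle-like cells. In CBFs2-like cells it was 0 in 563 cells, which allows a share of up to 0.533%. After thinning, CTFs-like and CBFs1-like cells were at 4.51% (3.18 to 6.19) and 0.88% (0.423 to 1.61). In the reporter library it was again 0 in CBFs2-like cells, here 852, which allows up to 0.352%.

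Tcf7 had the same order among fibroblasts. It averaged 0.084 in CTFs-like (7.52%, interval 5.79 to 9.57), 0.042 in CBFs1-like (4.14%, 3.06 to 5.46) and 0.004 in CBFs2-like cells (2 of 563). After thinning, the first 2 overlapped, at 2.13% (1.25 to 3.39) and 1.23% (0.675 to 2.06). The reporter means were 0.034 for cluster 4, 0.016 for CBFs1-like and 0.001 for CBFs2-like. The highest Tcf7 mean, 0.317, was in immune-like cells, of which 7 of 41 were above 0.

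Cd44 averaged 2.94 in CTFs-like cells (70.4%, interval 67.1 to 73.6), 2.49 in immune-like, 1.21 in smooth muscle-like and 1.14 in glia-like cells. The CBFs1-like and CBFs2-like classes were close, at 0.562 and 0.604, with shares of 33.7% and 35.0%. Blood endothelial-like cells were the lowest named stromal class at 0.081. Cd44 was thus high both in crypt base-like epithelium (2.99, 87.4%) and in the fibroblasts named for the crypt top.

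Myc distinguished the 2 CBFs classes in both libraries. In the wild-type library it averaged 0.567 in CBFs2-like cells (27.9%, interval 24.2 to 31.8) and 0.118 in CBFs1-like cells (10.0%, 8.35 to 11.9), at a median of 2716 and 2683 genes per cell. In the reporter library it averaged 0.469 (28.1%, 25.1 to 31.2) and 0.035 (2.90%, 1.95 to 4.14), where the CBFs2-like cells had fewer genes (1174 against 1386, medians). Activated and inflammatory fibroblasts-like cells of the reporter library lay between them, at 0.163 and 0.184. Glia-like and pericyte-like cells of the wild-type library were also high, at 0.744 and 0.678.

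Axin2 was low in the stroma. In the wild-type library CBFs2-like cells averaged 0.0995 (9.41%, interval 7.13 to 12.1), CBFs1-like cells 0.0625 (5.81%, 4.52 to 7.33) and CTFs-like cells 0.034 (2.88%, 1.84 to 4.29), beside 2.03% of blood endothelial-like cells. The intervals of both CBFs classes lay above that of CTFs-like cells, and overlapped each other. After thinning to 2000 corrected counts all 3 overlapped, at 1.95% (0.979 to 3.47), 1.67% (1.01 to 2.60) and 0.627% (0.204 to 1.46). Rnf43 was 0.011 in the same CBFs2-like cells, and in crypt base-like cells Rnf43 was 0.862 and Axin2 0.964. The part of RNA from other cells in the Axin2 levels of fibroblasts was not tested. CBFs2-like, CBFs1-like and cluster 4 cells of the reporter library were at 0.022, 0.019 and 0.019, with shares of 1.88%, 1.90% and 1.70%. These shares overlapped, in a library with fewer corrected counts per cell. Znrf3 averaged 0.044, 0.025 and 0.018 in CBFs2-like, CBFs1-like and CTFs-like cells of the wild-type library and 0.025, 0.025 and 0.011 in CBFs2-like, CBFs1-like and cluster 4 cells of the reporter library.

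**Figure D4:**
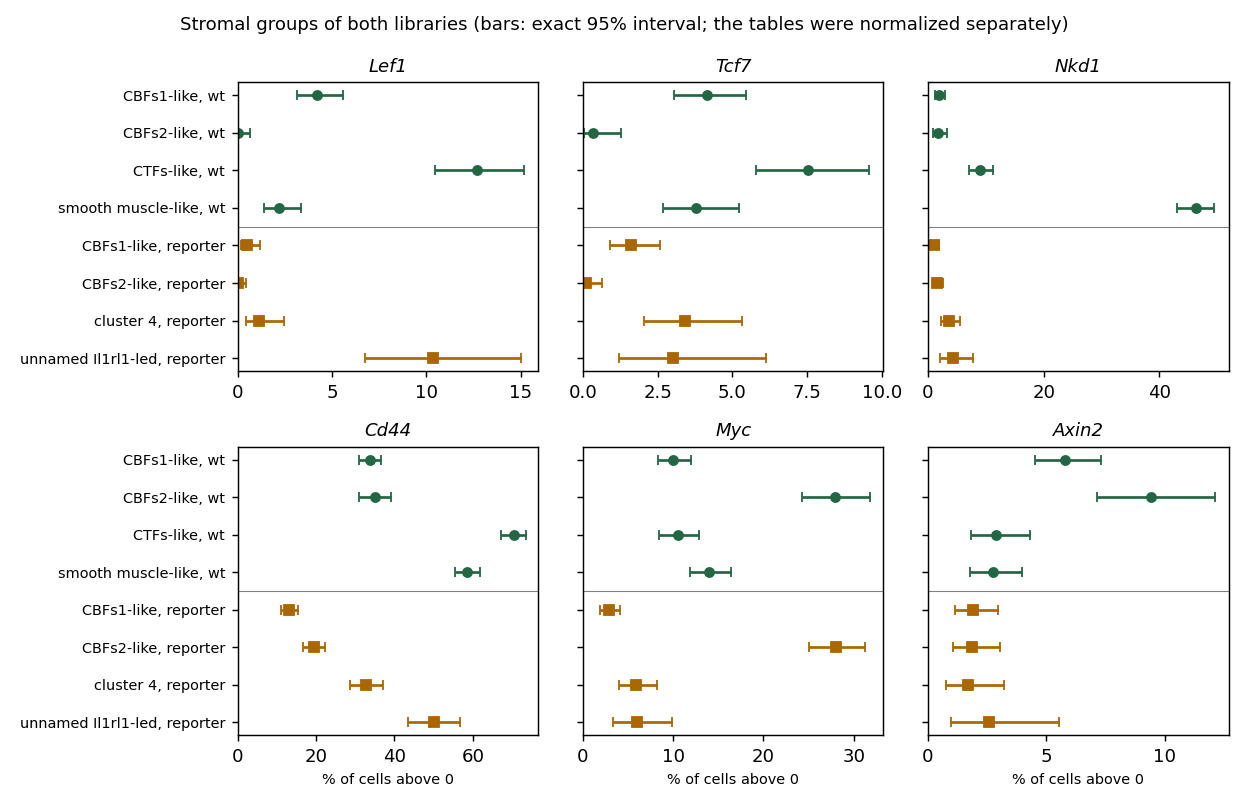
Percent of cells above 0 for 6 genes in stromal groups of the wild-type library (circles) and the reporter library (squares), with exact 95% intervals and a separate scale for each gene. Lef1 is at 12.7% in wild-type CTFs-like cells and 10.3% in the unnamed Il1rl1-led reporter cluster, and Myc is near 28% in CBFs2-like cells of both libraries. Cluster 4 is the reporter cluster with both CTFs and smooth muscle genes leading.

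Taking CTFs-like against both CBFs-like classes in the wild-type library (798 and 1699 cells), 4 of the 6 members that passed the filter were at least 2-fold higher in CTFs-like cells, where 5.53% of 10035 genes were, and 0 lower, where 7.28% of genes were. The log2 ratios were 2.33 for Cd44, 2.02 for Lef1, 1.86 for Nkd1 and 1.25 for Tcf7, and -0.95 and -0.76 for Axin2 and Myc. Nkd1, Lef1 and Tcf7 passed only through CTFs-like cells and Axin2 only through CBFs-like cells, so that the count describes where they were high. Of all 10 members, 4 were above 0 and 6 below. Over all 10, whether or not they passed the filter, the median was -0.43, beside -0.03 over all genes that passed. Without Notum, at or under the floor in both groups, and with Ascl2, at 0 in CTFs-like cells, set at its bound, it was -0.50. Smooth muscle markers also differed, with a mean summed level over 10 genes of 24.8 in CTFs-like cells, 2.49 and 2.33 in CBFs1-like and CBFs2-like cells and 294.2 in smooth muscle-like cells, and their part in the result was not tested.

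Cluster 4 of the reporter library was set against its CBFs-like cells (528 and 1852 cells). Of the 8 members listed, 2 passed the filter, Cd44 and Myc. Cd44 had a log2 ratio of 1.14 and Myc of -1.39, where 8.04% of 7117 genes were higher and 6.24% lower by 2-fold or more. Over all 8, 4 were above 0 and 4 below. Nkd1 (0.036 against 0.0135), Lef1 (0.0114 against 0.0027) and Tcf7 (0.0341 against 0.00918) were below the filter, with 19, 6 and 18 counts in this cluster.

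Lef1 in the reporter library was concentrated outside cluster 4. A cluster of 232 cells, led by Ptprr, Il1rl1 and Nrg1, had 6 of the 8 CTFs markers raised. It was left unnamed because no CTFs marker was among its leading genes. Lef1 averaged 0.125 there, with 24 cells above 0 (10.3%, interval 6.74 to 15). Cluster 4 had 6 of 528 cells above 0 (1.14%, 0.418 to 2.46). After thinning to 2000 corrected counts the shares were 5.60% (3.02 to 9.39) and 0.379% (0.0459 to 1.36), and the median number of genes had been 1842.5 and 1446.5. Cd44 was also higher in the unnamed cluster, at 0.793 (50%, 43.4 to 56.6) against 0.455 (32.8%, 28.8 to 37.0).

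The same 10 leading genes were then scored in the CTFs-like cells of the wild-type library, a step chosen after the values had been seen. They included Nrg1, the gene most alike to Lef1 over the wild-type classes. The score is therefore not independent of Lef1. Lef1 averaged 0.754 in the highest of 4 equal score groups (88 cells above 0, 44.2%, interval 37.2 to 51.4). It was 0.065 in the next group, 0.005 in the second and 0.015 in the lowest, where all 200 cells, and 113 of the second, had none of the 10 genes. Cd44 averaged 6.86 in the highest group and 1.16 to 2.55 in the others, and Wnt5a, a Wnt ligand, 5.17 against 1.67 to 2.32. The highest group also had more genes per cell, with a median of 2930 against 2176.5 in the lowest. After thinning, Lef1 was above 0 in 14.6% and 1.00% of these cells.

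**Figure D5:**
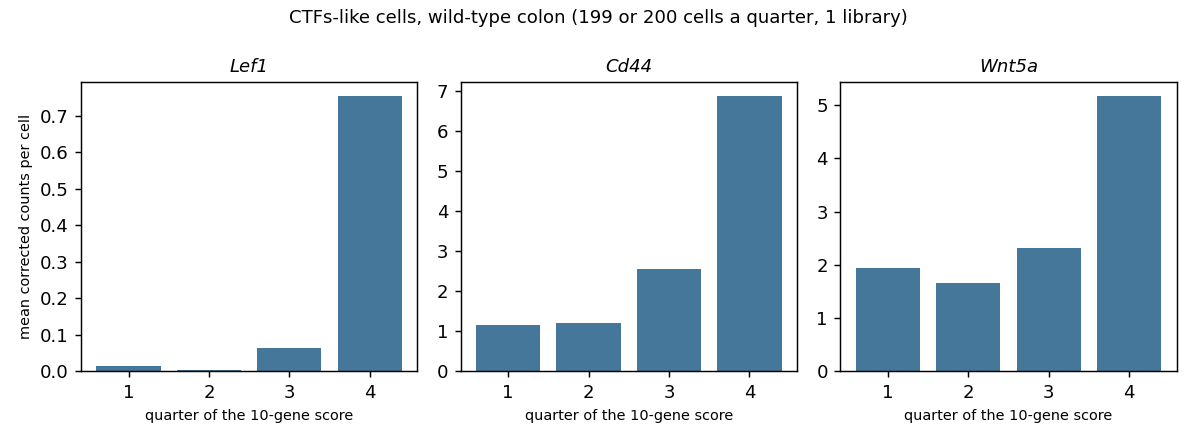
Mean corrected counts per cell of Lef1, Cd44 and Wnt5a in 4 equal groups of the 798 wild-type CTFs-like cells, ordered by the mean natural log value of the 10 genes leading the unnamed reporter cluster. Lef1 stands at 0.754 in the highest group and at 0.065 or less in the others.

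Lef1 and Cd44 were found in the same fibroblasts. Of 101 CTFs-like cells with Lef1, 98 had Cd44 (97.0%, interval 91.6 to 99.4), against 66.6% (62.9 to 70.1) of 697 cells without Lef1, at a median of 2968 and 2368 genes. After thinning the shares were 75.2% and 34.6%. Axin2 was above 0 in 3.96% (1.09 to 9.83) and 2.73% of these cells, and Nkd1 in 14.9% (8.56 to 23.3) and 8.18% (6.25 to 10.5), each pair with overlapping intervals.

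The promoter sequences of 7 members were found in RefSeq (build GRCm38.p6), in 12 windows from 250 bases before to 50 bases after a start site. The letters CTTTGA and CTTTGT, to which TCF/LEF factors bind, were searched on both strands, where they read TCAAAG and ACAAAG. They were present in 31.2% of all 32851 windows and in 1 of the 12, at an inner start of Lef1 (chr3:131156044-131156343, plus strand). That window is shown with the matches in capitals, and the Axin2 window (chr11:108920099-108920398, plus strand), without a match, stands beside it as the member with the strongest use as a pathway readout. The data counted 3′ ends and do not tell start sites apart.
Lef1 inner start: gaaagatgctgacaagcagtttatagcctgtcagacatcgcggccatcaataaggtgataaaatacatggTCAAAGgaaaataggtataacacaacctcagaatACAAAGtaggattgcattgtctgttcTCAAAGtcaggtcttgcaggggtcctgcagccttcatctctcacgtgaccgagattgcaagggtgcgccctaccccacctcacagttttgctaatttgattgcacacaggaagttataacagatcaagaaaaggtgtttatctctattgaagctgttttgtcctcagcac
Axin2: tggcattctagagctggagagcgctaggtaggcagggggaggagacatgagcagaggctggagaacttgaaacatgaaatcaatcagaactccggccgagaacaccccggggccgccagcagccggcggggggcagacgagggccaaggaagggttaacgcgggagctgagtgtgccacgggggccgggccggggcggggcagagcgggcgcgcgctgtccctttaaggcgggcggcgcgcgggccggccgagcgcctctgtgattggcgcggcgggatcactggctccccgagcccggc

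In the GRCm38 annotation Axin2 lies on chromosome 11 (108920349 to 108950783), with Rnf43 (87662722 to 87735539), Tcf7 (52252371 to 52283014), Notum (120653788 to 120661175) and Znrf3 (5276324 to 5444847) on the same chromosome. Ascl2 is on chromosome 7 (142966829 to 142969264), Nkd1 on 8 (88521354 to 88594884), Lef1 on 3 (131110471 to 131224356), Cd44 on 2 (102811141 to 102901665) and Myc on 15 (61985391 to 61990374). The values refer to whole genes, and no exon or intron was resolved.

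Other genes of the pathway were described from fixed lists. Of 12 further reported targets, 10 passed the filter. Of these, 8 were at least 2-fold higher in crypt-like than enterocyte-like cells and 0 lower, beside 33.4% and 12.2% of all genes. They were led by Bambi (0.211 against 0.0186), Ephb3 (0.358 against 0.0465) and Ccnd1 (1.68 against 0.288). Bambi, Ephb3 and Sp5 passed only through crypt-like cells. Over all 12 the median log2 ratio was 1.61, beside 0.50 over all genes that passed. Of 23 intracellular components, 21 passed, with 2 higher and 2 lower. Bcl9l, a co-activator (log2 ratio 1.85), and Bcl9 (1.19, named to complete the count) were higher. The transcription factor Tcf7l2 (-1.65) and the co-repressor Tle4 (-1.39) were lower. Bcl9l passed only through crypt-like cells. Tcf7l2 averaged 0.798 in the first and 2.80 in the last bin of the base-to-surface order, opposite to Tcf7.

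Between CTFs-like and CBFs-like cells of the wild-type library 0 of 22 intracellular components that passed reached 2-fold in either direction, beside 5.53% of all genes higher and 7.28% lower, and the largest log2 ratios were 0.80 for Tle4, -0.73 for Tle1 and -0.60 for Tcf7l1. Between cluster 4 and CBFs-like cells of the reporter library, where 8.04% of genes were higher and 6.24% lower, 1 of 16 did, Tle1 at -1.13, followed by Tnks at -0.99 and Tcf7l1 at -0.58. Among the other targets, 3 of 9 were higher and 1 lower in the wild-type library, with Enc1 at 2.39, Ephb2 at -2.29 and Ccnd1 at 2.10. Ephb2 passed only through CBFs-like cells. Over all 12 the median was -0.21, beside -0.03 over all genes that passed. In the same reporter comparison 3 of the 7 that passed were higher, Enc1 at 1.87, Ccnd1 at 1.53 and Ptprk at 1.19, and 0 were lower. Ephb2, below the filter and named for its bound, had 0 counts in cluster 4 and 55 in CBFs-like cells. It was at least 5.23-fold lower in cluster 4 against a floor of 3 counts over the group. Enc1 passed only through cluster 4. Over all 10 other targets in that library the median was -0.04, beside 0.22 over all genes that passed.

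Between epithelium and fibroblasts 4 of 9 other targets were at least 2-fold higher in epithelium and 0 lower. The shares over all genes were 34.9% and 17.4%. Cdx1 (5.42), Ephb2 (2.94) and Ccnd2 (1.60) led, and Ephb2 passed the filter only through epithelium. Over all 12 the median log2 ratio was 0.55, beside 0.49 over all genes that passed. Of the 23 intracellular components 2 were higher and 2 lower, led by Pygo1 (-3.10), Bcl9l (-2.25) and Tle4 (1.93). Pygo1 passed only through fibroblasts.

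Genes outside these lists were ranked by the correlation of their log2 class means with each member over the 15 named classes of the wild-type library, among 11446 genes. The classes share 1 library, and with it its depth and any RNA of other cells in it. Ascl2 was closest to Fbp1, Lgr5 and Cdca7 (r = 0.972, 0.965 and 0.965), and Axin2 to Pus7, Cpsf1 and Htr4 (0.96, 0.95 and 0.94). Rnf43 was closest to Ugt2b35, Gm45912 and Aldh1b1 (0.99, 0.98 and 0.98), and Znrf3 to Bcl11a, Pdcd2 and Naa25 (0.98, 0.97 and 0.96).

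Nkd1 was closest to Cap2, Fbxl22 and Trpc6 (0.96, 0.95 and 0.95), whose highest level was in smooth muscle-like cells. Lef1 was closest to Nrg1, Fam162b and Bean1 (0.92, 0.92 and 0.91), highest in CTFs-like cells. Tcf7 had Tgif2, 5031439G07Rik and Kdm2b (0.84, 0.83 and 0.82), and Myc had Asxl1, Pprc1 and Pole4 (0.88, 0.84 and 0.83). Cd44 had the weakest likeness, with Timm22, Dtx4 and Ik (0.81, 0.76 and 0.74). For Notum the values 0.93, 0.93 and 0.92 with Hdgf, Pole and Pa2g4 rest on class means of at most 0.0255.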

How the data were processed

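Single-cell libraries were made with 10x 3′ chemistry, V3 for the wild-type and V2 for the reporter library. According to the methods, the authors counted UMIs with Cell Ranger against mm10, filtered cells and normalized with SCTransform in Seurat 3.1 under R 3.6.2. The deposited tables named raw hold whole numbers of similar total in every cell, which are the SCTransform-corrected counts (treated as a score, not as UMI counts), and the other deposited tables hold their natural log, ln(1 + value). Totals were 6120 to 16389 per cell in the wild-type and 2314 to 4432 in the reporter library.

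The natural log values were clustered in Seurat 5.3.0 under R 4.3.3 with 30 principal components, at resolution 0.45 (wild-type) and 0.3 (reporter). The members and both pathway lists were kept out of the variable features. Epithelial clusters were clustered again with 20 components at resolution 0.8. A cluster was named from a marker list whose median log2 fold was at least 0.5, with 3 or more markers above 1.5-fold and at least 1 among its 10 leading genes. Naming thresholds were set with the clusters in view.

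Levels are means of corrected counts per cell. Ratios used a pseudocount of 0.01 and genes with a mean of 0.05 or more in either group. There was no replicate and no test was planned, and folds of 2 or more were counted beside the share of all genes. Shares have exact Clopper-Pearson intervals at 95%. Ratio and likeness code was tested on simulated data. Scrublet called 5 and 4 doublets (0.0667% and 0.0907%), too few to have worked, so doublets were kept and the highest 6% of scores were left out as an alternative chosen after seeing the data.

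Named were the 10 members in every class, the 3 pathway genes with the largest ratio in each list and comparison, and the 3 genes most alike to each member. Clusters described singly were chosen after their values were seen. The members and lists were chosen with earlier results of these data known. Promoter sequences were from RefSeq (GRCm38.p6) and gene positions from GENCODE (GRCm38).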

Additional observations from a re-analysis of the deposited data

How the results depend on the processing

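No paired analysis was possible because each genotype had 1 library. Of 478 ratios of single members recomputed under the alternatives, 58 moved by more than 1.5-fold and 0 of those at 2-fold or more changed sign. The medians below are over the members that passed the filter, and over all listed members they were 2.10, -0.43 and 0.70 for the 3 wild-type comparisons in this order. The median log2 ratio, crypt-like over enterocyte-like, was 2.67 and became 3.29 with the resolutions exchanged and 1.87 with a pseudocount of 0.05. Between CTFs-like and CBFs-like cells (wild-type) it was 1.56 and became 0.92 with a pseudocount of 0.05. There the 4 members higher became 2 with a gene filter of 0.2, and the 0 lower became 2 at a fold of 1.5 and 1 (Axin2) without the highest 6% of Scrublet scores. Epithelial over fibroblast, the median of 2.03 became 1.44 without cells above 10% mitochondrial counts and 1.31 after thinning to 2000 counts. From the first to the last bin of the base-to-surface order it was -3.33, and became -2.07 with the 10% limit and -2.64 with a pseudocount of 0.05. The cause of these shifts was not tested. With the 10% limit no enterocyte-like class could be named, so the crypt-like comparison has no value there, and no reporter cell was removed. Lef1, cluster 4 over CBFs-like in the reporter library, went from a log2 ratio of 0.75 to 2.14 when the unnamed Il1rl1-led cluster was added to cluster 4, an alternative chosen after seeing the data. Thinning removes counts and so lowers shares by its design, and 131 of 206 shares left their interval after it. Shares of Notum and of stromal Ascl2 and Rnf43 rest on a few cells.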
